A study of Anthoceros agrestis with 2 samples.

Results

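Of the 124405 bins of 1 kb along the chromosomes of the hornwort Anthoceros agrestis, 1086 bins (0.873%) had a mean read depth of 18 or more per cytosine. These bins of excess depth were chosen from the merged report of an Enzymatic Methyl-seq (EM-seq) experiment, as bins on the scaffolds AnagrOXF.S1 to AnagrOXF.S6 whose mean depth over all listed cytosines reached 2 times the chromosome median of 9. EM-seq converts unmethylated cytosines enzymatically and leaves methylated ones, so each read calls a cytosine as methylated or not. The samples were wild-type thalli of the Oxford strain, 4 weeks old, in 2 biological replicates of 1 group, with no treatment and no second genotype. The depth of a bin chose the members and its CG level set their class, so both are given as a description, no test is made, and every error is the SD of the replicates (n = 2). Because the merged report holds the reads of both replicates, the replicate depths are parts of the value that chose the bins.

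In plants, methylation in the CG context is copied after replication by MET1, and methylation in CHG (H is A, C or T) is kept by chromomethylases that bind methylated histone H3 lysine 9. CG and CHG methylation together mark transposable elements (TEs) and other silent repeats, whereas the bodies of active genes in many plants lack CHG methylation. CHH methylation needs de novo activity at each cell division and is often confined to a part of the TEs. A level is read as the share of methylated reads at a cytosine, averaged over the cytosines of a bin, so a bin can be methylated at nearly all its CG sites, at none, or at a mixture.

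The members were separated by their CG level into methylated bins (50% or more), unmethylated bins (below 5%) and intermediate bins between these limits. One stretch is shown for the deepest bin of each class and of the longest run, so that the state of single cytosines can be seen. Each is the longest stretch of the bin whose bases can all be read from the trinucleotides in the report, 5′ to 3′ on the plus strand of the Oxford assembly. For the last stretch only, the choice was limited to stretches that hold a CG site. In the first 4, capitals mark cytosines with a level of 50% or more, on either strand, so a capital G marks a methylated cytosine of the minus strand. In the last stretch, chosen after its values were seen, capitals mark cytosines with a level between 20% and 80%.
Deepest methylated bin, AnagrOXF.S1:261776-261824: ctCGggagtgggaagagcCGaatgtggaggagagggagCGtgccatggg
Deepest unmethylated bin, AnagrOXF.S6:8239609-8239631: ctcatctctgctacaagctccaa
Deepest intermediate bin, AnagrOXF.S2:18528859-18528895: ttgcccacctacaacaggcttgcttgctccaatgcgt
Deepest bin of the longest run, AnagrOXF.S3:15749547-15749578: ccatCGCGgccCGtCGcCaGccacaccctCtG
Intermediate bin with sites between the ends, AnagrOXF.S2:7224609-7224659: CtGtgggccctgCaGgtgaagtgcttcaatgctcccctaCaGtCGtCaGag

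In the deepest methylated bin the 6 CG cytosines of the stretch had levels of 91.7% to 97.7%, at depths of 208 to 350 reads. The stretch of the deepest unmethylated bin had no methylated cytosine among 11, each read at least 1551 times. It held no CG cytosine, so it does not show the CG state on which the class rests. The stretch of the longest run had 8 CG cytosines at a mean of 92.3% and 6 CHG cytosines at a mean of 60.5%, at depths of 19 to 26 reads. In the last stretch the CG pair stood at 24.8% and 25.8% and the 10 CHG cytosines averaged 22.1%, although every cytosine there had 243 reads or more. The stretch of the deepest intermediate bin held 2 CG cytosines at 0.224% and 0.322%, while its whole bin had a CG level of 6.05%.

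Most members lay close to the limit. Their median depth was 22.0 reads, 674 of them (62.1%) had 18 to below 24 reads, 237 had 24 to below 36, 121 had 36 to below 72 and 54 had 72 or more. The deepest had 1463 reads per cytosine. The bins of excess depth held 0.897% of the chromosome cytosines and 3.33% of their calls. The 3 members nearest above the limit had 18.006 to 18.018 reads and were methylated, with CG levels of 72.1%, 96.6% and 87.4%. The 3 bins nearest below it had 17.992 to 17.998 reads, and 2 of them were methylated (94.9% and 84.4%) and 1 was unmethylated (1.28%). Bins with a mean depth of 6 to below 12, here called ordinary bins, were used for comparison (93714 bins, of which 42211 were methylated, 37859 unmethylated and 13277 intermediate).

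The excess was divided between both replicates, whose reads together chose the bins, so their depths are not an independent check. Each replicate had 4.89 or 4.98 reads per cytosine in its median bin, and a mean depth of 9 or more was found at 1015 members in replicate 1 and at 968 in replicate 2. In all bins this limit was reached by 0.906% in replicate 1, 0.835% in replicate 2 and 0.721% in both. Both replicates reached it at 897 members (82.6%). No member missed it in both, which follows almost wholly from the rule, because the merged depth is close to the sum of the replicates. The lowest depth of a member in either replicate was 7.07 reads. The median ratio of replicate 1 to replicate 2 was 1.04, with 9 members above 1.5.

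**Figure D1:**
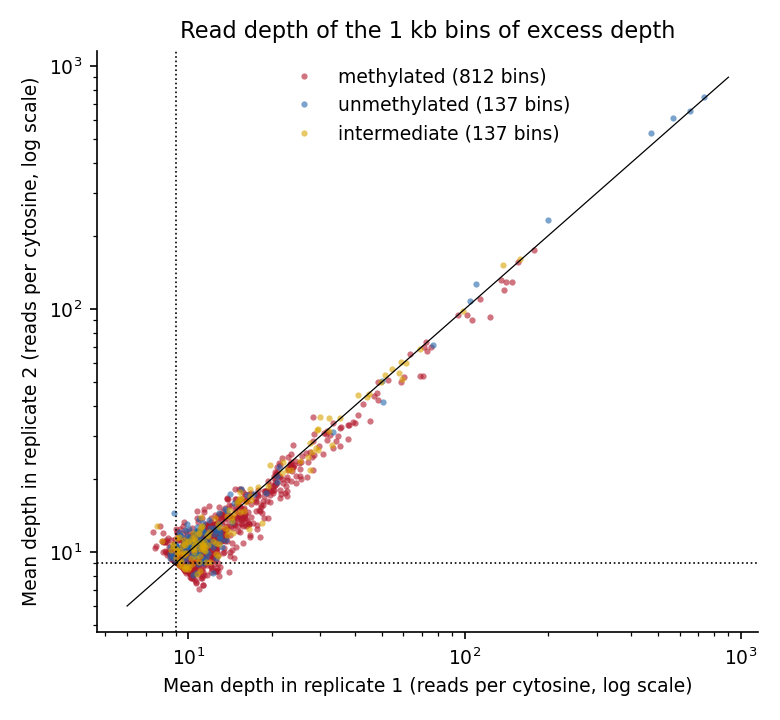
Mean depth of each bin of excess depth in replicate 1 (x axis) and replicate 2 (y axis), in reads per cytosine on log scales, with 1 point per bin coloured by class, dotted lines at 9 reads and the line of equal depth. The 1086 points follow the line of equal depth over the whole range, and the deepest unmethylated bin had 733 reads in replicate 1 and 745 in replicate 2.

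Reads were spread over most of the bin in the majority of members. In 845 members (77.8%) the median depth of the cytosines was also 18 or more, and the median member had 64.6% of its cytosines at this depth. In contrast, 73 members (6.72%) had at least 20% of their cytosines without a read, against 1.23% of ordinary bins. At 2.62% of the cytosines of members the merged depth was not equal to replicate 1 plus replicate 2, against 0.226% of all others.

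Methylated bins were the largest class of excess depth. They numbered 812 (74.8% of members), against 46.3% among all bins with a CG level. The difference lay on AnagrOXF.S1 to S5, where 70.7% of members and 42.6% of bins with a CG level were methylated. On AnagrOXF.S6 it was absent, with 84.2% of members and 87.0% of bins with a CG level. Unmethylated bins numbered 137 (12.6%), against 39.9%, and intermediate bins also numbered 137 (12.6%), against 13.8%. All 1086 members had enough CG sites for a class. The 3 classes had like median depths, of 21.9 reads in methylated, 22.1 in unmethylated and 23.4 in intermediate members. Among the 54 members with 72 or more reads the shares were 55.6%, 18.5% and 25.9%. Of the 10 unmethylated bins among these 54, 6 formed a single run on AnagrOXF.S6. The class of a bin was the same in the merged report and in both replicates for 1057 members. No member was methylated in one replicate and unmethylated in the other, and the CG level differed between the replicates by a median of 1.43 percentage points and by 29.999 at most.

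The 5 deepest methylated members were all on AnagrOXF.S1. The bin at 261001-262000 had 179 reads per cytosine in replicate 1 and 175 in replicate 2, with a CG level of 94.3% ± 0.0898 and a CHG level of 57.9% ± 1.11. Its neighbours at 260001, 262001 and 259001 had 311, 277 and 266 reads in the merged report. The remaining bin, at 3850001-3851000, had 141 and 129 reads in the replicates and the highest CHG level of the 5, 73.8% ± 0.790. The 5 bins stood at 92.4% to 96.6% in CG, 52.8% to 73.8% in CHG and 0.863% to 2.12% in CHH. The deepest member of AnagrOXF.S4, at 2972001-2973000, was likewise methylated, with 48.5 and 42.4 reads in the replicates, a CG level of 88.5% ± 1.12 and a CHG level of 68.0% ± 0.247.

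Methylated members carried CHG as well as CG methylation. Their CG level was 89.7% ± 0.589 over 51903 sites, against 90.2% ± 0.740 in methylated ordinary bins, a difference smaller than the spread of the replicates. Their CHG level was 57.4% ± 0.899, against 50.5% ± 1.13 in methylated ordinary bins, a difference larger than that spread. The members had few bins that were methylated in CG alone. A CHG level below 10% was found in 10 of the 812 methylated members (1.23% in each replicate), against 6350 of the 42211 methylated ordinary bins (15.2% ± 0.0534 in the replicates). Among bins with a CHG level of 30% or more the order was reversed, with 60.2% ± 0.985 in 759 members and 64.8% ± 1.05 in 33849 ordinary bins.

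The CHG comparison also depended on the chromosome. On AnagrOXF.S1 to S5 the CHG level of methylated bins was 57.2% ± 1.05 at excess depth and 48.1% ± 1.13 at ordinary depth. On AnagrOXF.S6 it was 57.8% ± 0.627 at excess depth and 63.6% ± 0.943 at ordinary depth, so methylated members were higher on the first 5 chromosomes and lower on the sixth. Methylated members themselves had like CHG levels on both sets of chromosomes. In the plot of CHG levels the members had the larger share of bins in each step from 20% to 80%, in both replicates. In the steps below 20% and from 80% they had the smaller share.

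**Figure D2:**
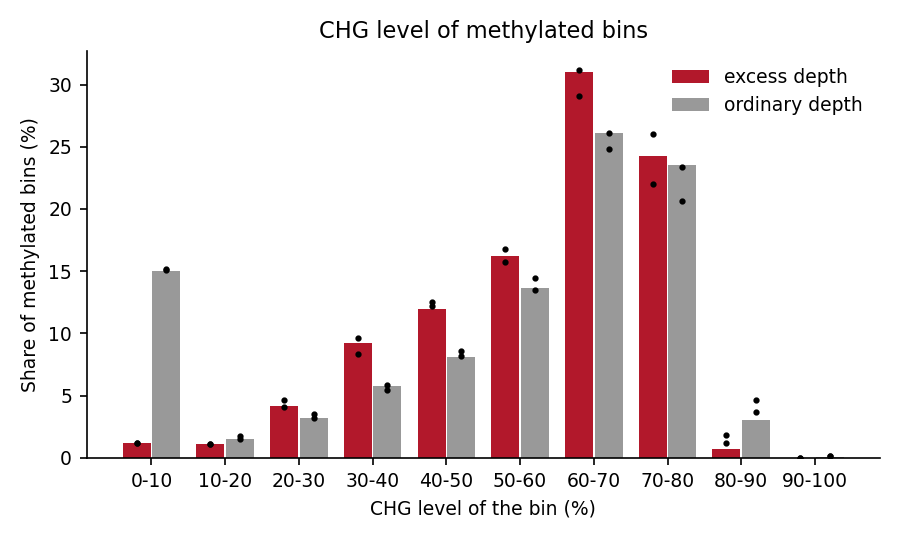
Share of methylated bins (y axis, %) in steps of 10 percentage points of the CHG level (x axis, %), for bins of excess depth (red) and of ordinary depth (grey); bars give the merged report and dots the replicates. In the lowest step stood 1.23% of the bins of excess depth and 15.04% of the ordinary bins, and in the step from 60% to 70% stood 31.0% and 26.1%.

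The order of the CHG trinucleotides was the same at both depths. In methylated members CAG had a level of 66.2% ± 1.11, CTG of 62.3% ± 0.723 and CCG of 28.5% ± 0.820. In methylated ordinary bins CAG had 57.6% ± 1.44, CTG 54.2% ± 1.000 and CCG 24.7% ± 0.812. CHH methylation was low in both. It was 1.69% ± 0.00723 in methylated members and 1.58% ± 0.0162 in methylated ordinary bins, and among bins with a CHG level of 30% or more it was 1.76% ± 0.0112 and 1.94% ± 0.0270. Of the CHH trinucleotides CAA and CTA were the highest in members, at 5.25% ± 0.0950 and 3.25% ± 0.106, against 4.13% ± 0.0646 and 2.66% ± 0.0487 in methylated ordinary bins. CTC and CTT were the lowest, at 0.435% ± 0.00873 and 0.418% ± 0.00719 in methylated members and 0.399% ± 0.0235 and 0.409% ± 0.0219 in methylated ordinary bins.

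The CG sites of members more often had levels between the ends of the scale. In methylated members 13.4% ± 0.488 of the CG sites had a level of 20% to 80%, against 5.29% ± 0.684 in methylated ordinary bins. In intermediate members this share was 39.1% ± 1.06, against 8.18% ± 0.370 in intermediate ordinary bins. Both differences were larger than the spread of the replicates. They held among members with only 18 to below 24 reads, where the shares were 12.1% ± 0.345 in methylated and 42.9% ± 1.70 in intermediate bins. They also held on AnagrOXF.S6, with 11.3% ± 0.0299 in methylated members and 4.39% ± 0.428 in methylated ordinary bins. In unmethylated members the share was 0.682% ± 0.0928, close to the 0.595% ± 0.0151 of unmethylated ordinary bins.

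**Figure D3:**
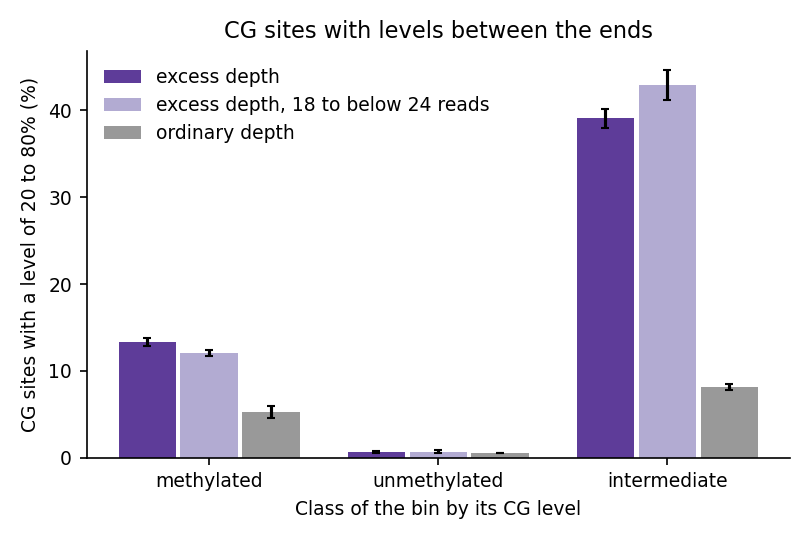
Share of CG sites with a level of 20% to 80% (y axis, %) by class of the bin, for all bins of excess depth, those of 18 to below 24 reads, and ordinary bins; bars are the mean of the replicates and error bars their SD (n = 2). In intermediate bins the share was 39.1% at excess depth and 8.18% at ordinary depth.

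Intermediate members differed from intermediate ordinary bins in how their sites were arranged. At least 50% of the CG sites were at 20% to 80% in 49 of 137 intermediate members (35.8%), against 1.36% of intermediate ordinary bins. A mixture of low sites and high sites, with at least 20% of each, was found in 13.1% of intermediate members and in 44.5% of intermediate ordinary bins. Their CHG level was 16.1% ± 0.478, against 4.17% ± 0.203 in intermediate ordinary bins, while the CG levels were 25.6% ± 0.102 and 23.3% ± 0.717. CAG, CTG and CCG reached 18.8% ± 0.646, 17.4% ± 0.483 and 6.30% ± 0.0780 in intermediate members, against 4.68% ± 0.270, 4.46% ± 0.161 and 1.93% ± 0.124 in intermediate ordinary bins. CHH was 0.600% ± 0.0296 against 0.270% ± 0.00207.

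The deepest intermediate members lay on AnagrOXF.S2. The bin at 18528001-18529000 had 158 reads in replicate 1 and 160 in replicate 2, and a CG level of 5.97% ± 0.211. Next to it, the bin at 18527001-18528000 had 137 and 152 reads and a CG level of 36.3% ± 5.08, with 60 of its 90 CG sites covered. The bin at 7224001-7225000, from which the last stretch above was taken, had 98.4 and 98.1 reads, a CG level of 24.5% ± 0.767 and a CHG level of 16.2% ± 3.25. The deepest members of AnagrOXF.S3 (13833001-13834000, 61.2 and 60.04 reads) and AnagrOXF.S5 (9519001-9520000, 41.1 and 44.2 reads) were also intermediate. They had CG levels of 7.42% ± 0.726 and 10.97% ± 4.47.

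Unmethylated members were unmethylated in all contexts. Their levels were 0.753% ± 0.00325 in CG, 0.422% ± 0.0148 in CHG and 0.0883% ± 0.0150 in CHH. In unmethylated ordinary bins they were 0.483% ± 0.00358, 0.211% ± 0.00578 and 0.103% ± 0.00791. The CG and CHG levels of members were thus higher by more than the spread of the replicates, and the CHH levels differed by less than that spread. The 5 deepest unmethylated members formed 1 stretch of AnagrOXF.S6. The bin at 8239001-8240000 had 733 reads in replicate 1 and 745 in replicate 2, with a CG level of 0.0775% ± 0.00126 and a GC content of 33.7%. The bins at 8236001, 8238001, 8237001 and 8235001 had 1289, 1166, 988 and 427 reads in the merged report and GC contents of 29.4%, 24.6%, 19.9% and 24.9%.

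The base composition of methylated members differed from that of methylated ordinary bins. Their median GC content was 51.0%, against 46.9%. The same direction held on AnagrOXF.S1 to S5 (50.4% against 46.4%) and on AnagrOXF.S6 (52.3% against 49.6%). Unmethylated members had a median of 50.9%, against 51.3% in unmethylated ordinary bins, and intermediate members had 49.7%, against 47.5%. Over all bins, members made up 0.366% of those below 40% GC and 1.17% of those of 55% to below 60%, while the median depth of these bins was 9.47 and 9.46 reads. Of the bins of 60% GC or more, 0.844% were members, and their median depth was 8.15 reads. The part of the base composition in the depth of members was not tested.

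The members were unevenly placed. AnagrOXF.S6, on which 87.0% of the bins with a CG level were methylated, had 329 members, or 2.79% of its bins, whereas AnagrOXF.S1 to S5 together had 757, or 0.672%. Of the methylated bins 3.42% were members on AnagrOXF.S6 and 1.22% on the other chromosomes. Of the unmethylated bins 4.58% were members on AnagrOXF.S6 (31 members) and 0.240% on the others (106 members). Of these 31, 6 lay in the run from 8235001 and 7 in the run from 10520001. AnagrOXF.S2 followed, with 292 members (1.08%), and AnagrOXF.S5 had the fewest, 62 (0.441%). In blocks of 1 Mb the median was 3 members, 23 of 127 blocks had none, and the 10 richest held 440 members (40.5%). The richest block, AnagrOXF.S6:7000001-8000000, held 60 members, of which 52 were methylated. The last, partly filled block of AnagrOXF.S2, from 26000001, held 57, of which 51 were methylated. The block AnagrOXF.S2:20000001-21000000 held 21 unmethylated members among 44.

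Taken over all ends, methylated members lay near chromosome ends more often than methylated ordinary bins, but the ends differed widely. Of the methylated members 18.6% lay in the terminal 1 Mb of a chromosome, against 11.5% of methylated ordinary bins. For unmethylated members this share was 3.65%, against 5.36% of unmethylated ordinary bins. The last blocks of AnagrOXF.S2 (from 26000001) and AnagrOXF.S6 (from 11000001) held 51 and 31 methylated members. The first blocks of the 6 chromosomes held 3 to 15, and the last blocks of the other chromosomes, some of them short, held 0 to 4. The share without the ends of AnagrOXF.S2 and AnagrOXF.S6 was not counted. A neighbouring bin with fewer than 3 reads was found for 15.4% of members, near the 13.1% of all bins. By class it was found for 16.995% of methylated and 8.76% of unmethylated members, against 5.55% and 0.734% of ordinary bins of the same class, which by their definition have 6 to below 12 reads.

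The 1086 members formed 544 runs of consecutive bins. Single bins made up 333 of the runs and held 30.7% of the members, and 50 runs of 5 bins or more held 354 members. Unmethylated members were more often in these long runs (67.2%) than methylated (27.3%) or intermediate members (29.2%). Of the 50 long runs 29 had a mean depth below 24 reads. Of the 211 runs of at least 2 bins, 137 were wholly methylated, 7 wholly unmethylated, and 60 held more than 1 class.

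The 3 longest runs passed through methylated and unmethylated sequence at depths above the limit. The run AnagrOXF.S3:15740001-15763000 spanned 23 bins with a mean depth of 20.9 reads (10.7 in replicate 1 and 10.2 in replicate 2), and no bin was below 18.4 or above 23.98. Its first 14 bins were methylated, at CG levels of 78.4% to 97.7%, followed by 8 unmethylated bins at 0.0510% to 4.37% and 1 methylated bin at 86.2%. The bin after the run fell to 6.72 reads while its CG level stayed at 95.9%, and the bin before it had 14.2 reads. The run AnagrOXF.S6:10520001-10536000 had 16 bins and a mean depth of 22.6 reads (11.3 in each replicate). It held 4 methylated bins, 1 intermediate, 7 unmethylated, 1 intermediate and 3 methylated bins, in this order. In the 7 unmethylated bins the CG level was 0.131% to 1.44%, while the depth stayed between 19.2 and 25.5 reads. The run AnagrOXF.S2:21335001-21349000 had 14 bins and a mean depth of 21.5 reads (11.01 and 10.5), with 9 unmethylated bins between methylated and intermediate bins at its borders. That no bin of a run lies below 18 reads follows from the rule, and at a limit of 20 reads the longest run had 11 bins in place of 23.

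**Figure D4:**
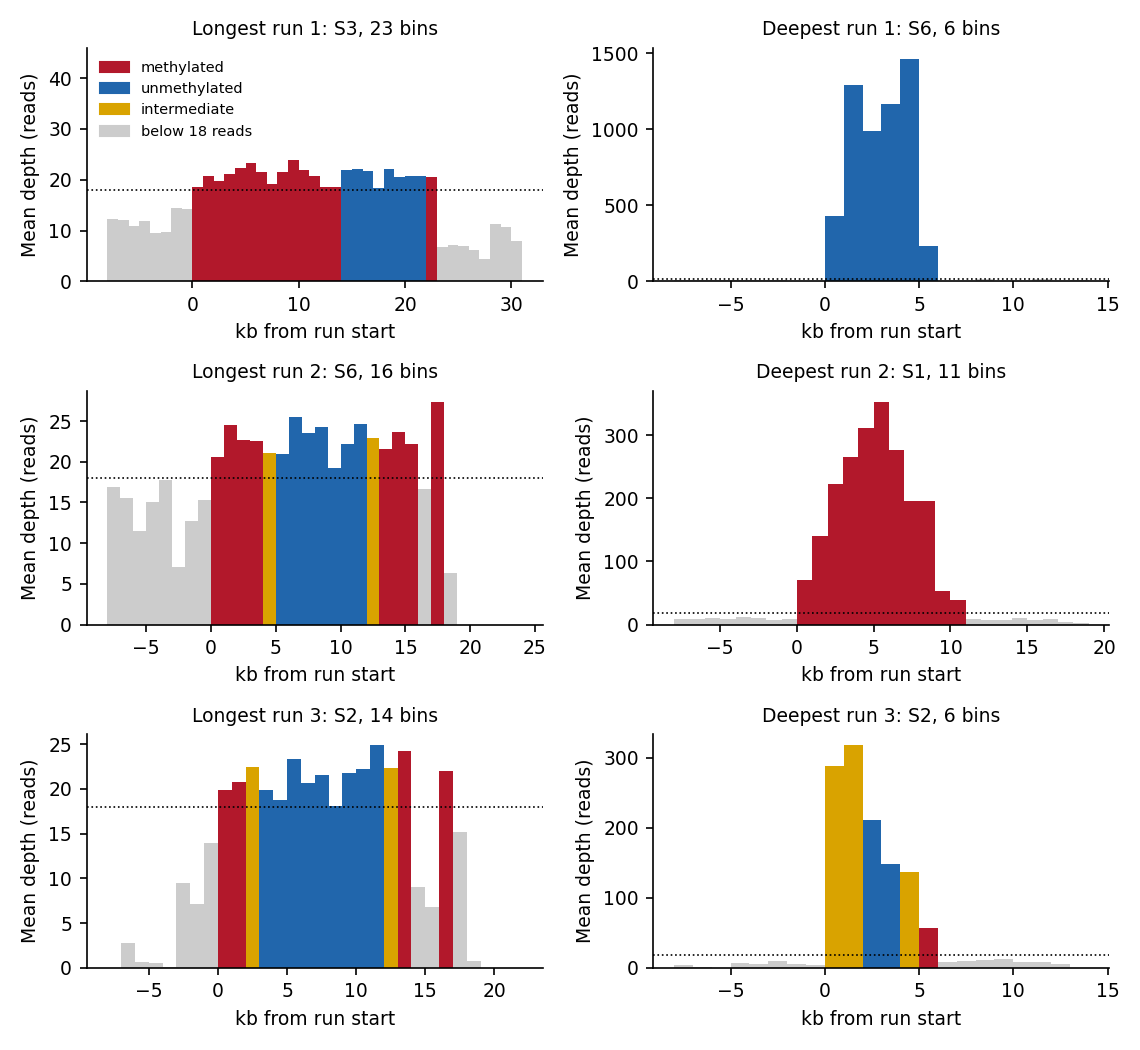
Mean depth of 1 kb bins (y axis, reads per cytosine) along the 3 longest runs (left) and the 3 deepest runs of 5 bins or more (right), against the distance from the start of the run (x axis, kb); bars are coloured by class, bins below 18 reads are grey, and the dotted line marks 18 reads. The longest run stays between 18.4 and 23.98 reads over 23 bins, and the deepest run reaches 1463 reads between bins with almost no reads.

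Among the runs of 5 bins or more, those with the highest mean depth differed in class and composition. The run AnagrOXF.S6:8235001-8241000 had 6 unmethylated bins with a mean depth of 928 reads (456 in replicate 1 and 482 in replicate 2), a mean GC content of 28.8% and a CG level of 0.132% ± 0.0206. The bin before it had 0 reads and the bin after it 0.106 reads per cytosine. The run AnagrOXF.S1:256001-267000 had 11 methylated bins with a mean of 193 reads (100.0 and 93.7) and a mean GC content of 56.5%. Its depth was 71.4 reads in the first bin, 353 in the sixth and 39.0 in the last, between neighbours of 8.19 and 8.58 reads. Its CG level was 89.7% ± 0.778 and its CHG level 56.9% ± 2.03. The run AnagrOXF.S2:18527001-18533000 also had a mean of 193 reads (95.7 and 97.8) over 6 bins, of which 1 was methylated, 2 were unmethylated and 3 intermediate.

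The sequence of members recurred in the assembly more often than that of ordinary bins. Words of 50 bases were read as C, G or either A or T. A word was counted as recurring where it also stood at another position in the assembly, on either strand. The other position could lie in the same bin. On average 47.9% of the words of a member recurred, against 14.2% in ordinary bins. The share was 51.3% against 23.8% for methylated bins, 26.9% against 5.06% for unmethylated bins and 49.0% against 9.62% for intermediate bins. It was 41.4% in members of 18 to below 24 reads, 53.9% in those of 24 to below 36, 66.3% in those of 36 to below 72 and 61.9% in those of 72 or more. Words of the unplaced scaffolds made up 11.3% of the words of members and 2.61% of those of ordinary bins. A letter that cannot be read from the report was counted as A or T and did not break a word. Stretches of unread letters can therefore match each other, and these shares describe the pattern of C and G that the reports list. The part of recurring sequence in the depth was not tested.

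**Figure D5:**
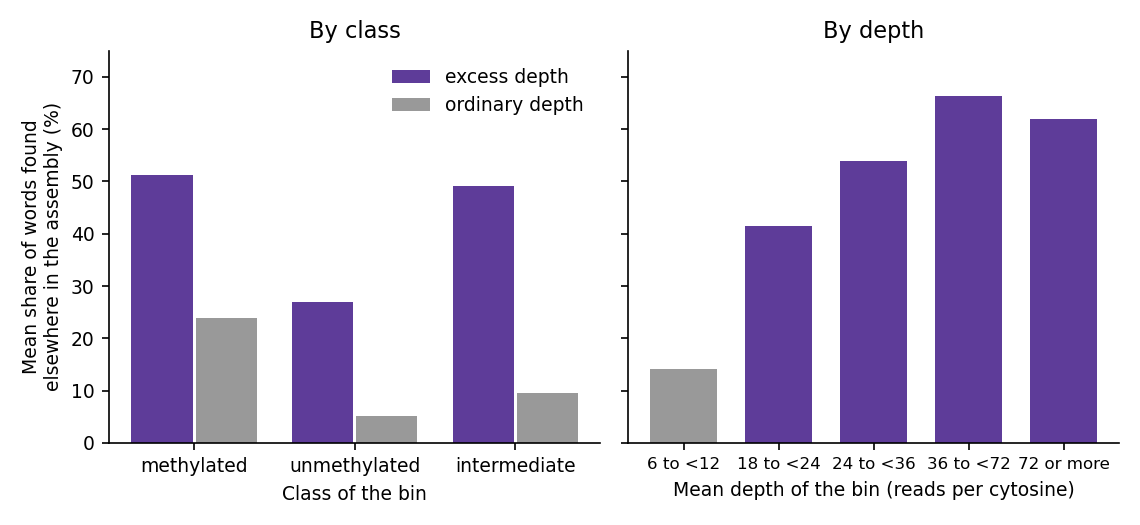
Mean share of the 50-base words of a bin that also stand at another position in the assembly, the same bin included (y axis, %). Shares are given by class (left) for bins of excess depth and ordinary bins, and by mean depth (right). By class the bars stand at 51.3%, 26.9% and 49.0% for excess depth, against 23.8%, 5.06% and 9.62% for ordinary depth.

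Long runs close to 2 times the ordinary depth recurred less. The median share of recurring words was 65.6% in runs of a single bin, 65.0% in long runs with a mean depth of 24 reads or more, and 21.6% in long runs below 24 reads. It was 16.1% in the longest run, 23.6% in the run of 16 bins and 19.9% in the run of 14 bins. The deepest run, on AnagrOXF.S6, had 16.7%. Of the 29 long runs below 24 reads, 14 had fewer than 20% recurring words. These shares were not separated by class. Unmethylated members recurred less (26.9%) than methylated members (51.3%) and lay more often in long runs (67.2% against 27.3%). The part of the class in the lower share of long runs was not tested.

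The runs were grouped by their own shared sequence. With at least 200 words in common, 184 of the 544 runs fell into 54 families, and 360 runs shared with no other. Ordinary bins were not grouped in this way, so these counts have no comparison. The largest family had 15 runs with 21 bins on 5 chromosomes, all methylated, with a median CG level of 95.3% and a median CHG level of 69.3%. The second had 11 runs with 30 bins on 2 chromosomes, all methylated, with a median CHG level of 43.8%. The run AnagrOXF.S1:256001-267000 belonged to a family of 5 runs with 18 methylated bins on 4 chromosomes and a median depth of 62.4 reads. In a few families most bins were intermediate. One of 7 runs had 12 intermediate bins of 18, a median CG level of 32.6% and a median of 36.3% of its CG sites at 20% to 80%. One of 6 runs, all on 1 chromosome, had 8 intermediate bins of 10, a median depth of 51.7 reads and a median CG level of 23.0%. Its deepest run was the bin AnagrOXF.S3:13880001-13881000, with 49.8 reads in replicate 1 and 50.3 in replicate 2.

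Sequence shared with unplaced scaffolds was counted for AnagrOXF.C7, AnagrOXF.C9 and AnagrOXF.C16. The scaffold AnagrOXF.C7 had a mean depth of 349 reads, and 203 chromosome bins shared at least 50% of their words with it. Of these 203 bins 5 were members, where 0.873% of all bins were members. Their median depth was 5.81 reads, against 9.998 in all chromosome bins of the merged report. Fewer than 6 reads were found in 105 of the 203. The share of all bins below 6 reads was not counted, so this number has no comparison. The 5 members lay between 11778001 and 11860000 on AnagrOXF.S1, had 20.7 to 110 reads, and were unmethylated (2 bins) or intermediate (3 bins). No member shared this much with AnagrOXF.C9 (837 reads) or AnagrOXF.C16 (1272 reads). These 2 scaffolds had GC contents of 32.4% and 30.4%, and 0.125% and 0.153% of their calls were methylated. The deepest run, on AnagrOXF.S6, was near them in these traits, with 28.8% GC and a CG level of 0.132%. AnagrOXF.C64 (517 reads, 33.3% GC) and AnagrOXF.C58 (296 reads, 29.9% GC) were not compared singly. Tandem repetition within a bin, with a period of 5 to 500 bp and at least 80% identity, was found in 1 member (0.0921%) and in 0.368% of all bins. At 90% identity it was the same number of members, against 0.0973% of all bins. The member was the methylated bin AnagrOXF.S2:23993001-23994000, with a period of 306 bp, 10.4 reads in replicate 1 and 11.5 in replicate 2, and CG and CHG levels of 64.2% and 0.217%.

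Annotated genes and TEs were placed from the 2000 listed genes and 1996 listed chromosomal TEs whose coordinates were used, which are parts of 1 gene cluster and 1 TE cluster of the study, so no share of members is drawn from them. Of these, 37 genes and 106 TEs shared at least 50 bp with a member. The member was unmethylated for 26 of the 37 genes and for 82 of the 106 TEs, counts that cannot be told apart from the make-up of the clusters, since the study describes the gene cluster as poor in cytosine methylation. The gene AnagrOXF.S6G197400, at 10526020-10529461 inside the run of 16 bins, had a mean depth of 23.8 reads and a CG level of 0.229% ± 0.110 over 415 covered CG sites. AnagrOXF.S5G177400, at 7615529-7616301, had 23.2 reads and 1.11% ± 1.04. AnagrOXF.S1G054000, at 2668728-2672206, had 23.8 reads and 13.9% ± 1.99. AnagrOXF.S3G295700, at 14017428-14018387, had 31.4 reads and 10.3% ± 0.0228, whereas AnagrOXF.S4G064300, at 2973254-2974548, had 11.8 reads over its whole length and 0 methylated reads at 131 covered CG sites. In 3 of these 5 genes the CG level was 1.11% or lower, and AnagrOXF.S4G064300 was well below the 29.1 reads of its member bin.

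The 5 TEs in the deepest members lay in only 2 bins. TE_homo_60005, at AnagrOXF.S4:2972892-2973294, lay partly in the deepest member of that chromosome and had 98.7 reads and a CG level of 81.0% ± 6.90. The other 4 lay in the intermediate member at 18438001 on AnagrOXF.S2. TE_homo_35732 (18438010-18438112) had 52.3 reads and 14.8% ± 0.777 at a single CG site, and TE_homo_35733 (18438090-18438217) had 61.0 reads and 38.4% ± 1.45. TE_homo_35734 (18438219-18438485) had 49.8 reads and 35.97% ± 6.35, and TE_homo_35735 (18438342-18438594) had 60.1 reads and 47.4% ± 0.163. The levels of these 4 neighbouring TEs lay between 14.8% and 47.4%, at depths of 49.8 to 61.0 reads. In less deep members TEs of low level were found, such as TE_homo_5684 (62.5 reads, CG level 0.773% ± 0.145) in a member of 43.6 reads and TE_homo_52958 (35.3 reads, 0.403% ± 0.208) in a member of 40.3 reads, both named after their values were seen. The sources used here give no function for these genes and TEs.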

How the data were processed

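EM-seq libraries were prepared from 2 biological replicates of 4-wk-old wild-type thalli. The authors merged and sorted the reads with SAMtools 1.9, converted them with BEDTools 2.27.1, trimmed them with Trim Galore, mapped them to the Oxford assembly with Bismark and its Bowtie2 option, and removed duplicates. The deposited values are counts of methylated and unmethylated reads per cytosine, not normalized, in 3 reports (replicate 1, replicate 2, and both with their reads merged before mapping). The reports held 323429467, 325691541 and 648374160 calls. The merged report is 1 value without an SD.

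The depth of a bin was the mean count of reads over all its listed cytosines, unread ones included. Levels are means over cytosines with at least 10 reads in the merged report, as in the study, or 5 in a replicate. At least 5 covered CG sites were needed for a class. Of 61284847 chromosome cytosines 29884992 reached the minimum of 10, and no conversion control was used here. GC content counts the listed cytosines of both strands, and bases were read from the trinucleotide column (85.3% of chromosome bases). With 1 group of 2 replicates no test was made.

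The members and lists were chosen with earlier results of these data known. Named were the 5 deepest methylated and unmethylated members and the 3 deepest intermediate ones, the deepest member of each chromosome, the 3 longest runs, the 3 bins on each side of the limit, and the 5 listed genes and TEs in the deepest members, from the first 2000 rows each of Datasets S3 and S6. The deepest runs, the families and the last printed stretch were chosen after their values were seen. Alternatives were other coverage minimums, depth limits, bin sizes, class limits, the sum of the replicate reports, the median depth, and each replicate alone. Calculations used Python, NumPy, Numba and PyArrow, and were tested on simulated reads with known depth and level.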

Additional observations from a re-analysis of the deposited data

How the results depend on the processing

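No paired analysis was possible because there was 1 group. Of 121 alternative values, 72 moved by less than the spread between replicates (or, for counts, stayed within 1.5 times) and 49 moved. Limits of 16 and 20 reads gave 1386 and 807 bins, and the limit of 27 reads gave 310 bins, of which 233 were methylated and 24 unmethylated. Bins of 500 bp numbered 2416, with 1815 methylated and 315 unmethylated, and bins of 2 kb numbered 485, with 339 and 60, as their size implies. The longest run was 23 kb, and it was 11 kb at limits of 20 and 27 reads. The CHG level of methylated bins (57.4%) was 58.7% with at least 20 reads per site, 56.5% and 55.9% at limits of 20 and 27 reads, 59.4% in bins of 500 bp, 54.8% in bins of 2 kb and 61.5% with classes of 80% and 1%. Their CHH level (1.69%) was 1.72% and 1.68% with coverage minimums of 5 and 20, 1.64% as methylated reads divided by all reads, 1.73% and 1.64% at limits of 16 and 20 reads, 1.74% and 1.63% in bins of 500 bp and 2 kb, 1.66% by the median depth and 1.83% with classes of 80% and 1%. The CHH level of unmethylated bins (0.0889%) was 0.109% with at least 20 reads, 0.125% as methylated reads divided by all reads, 0.120% and 0.121% in bins of 500 bp and 2 kb, and 0.0721% with classes of 80% and 1%. The GC content of methylated bins was 50.7% and 52.5% at limits of 16 and 27 reads, 50.8% in bins of 2 kb, 50.3% by the median depth and 51.2% with the stricter classes. That of unmethylated bins was 50.45% and 48.2% at limits of 20 and 27 reads, 50.4% and 50.9% in bins of 500 bp and 2 kb, 50.95% by the median depth and 51.1% with the stricter classes, against a spread between replicates of 0, so any change counts as moved. Each replicate alone gave 1039 to 1127 bins, 765 to 853 methylated and 132 to 137 unmethylated, CHG levels of 56.3% to 58.3%, CHH levels of 1.67% to 1.73% and 0.0790% to 0.103%, GC contents of 50.9% to 51.1% for methylated and 50.8% for unmethylated bins, and a longest run of 16 kb both times. Words of 100 bases lowered the mean share of recurring words in members to 29.7%, against 6.50% in ordinary bins. The causes of these moves were not tested. The replicates had a median of 4 reads per cytosine, so levels of single cytosines are coarse.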
